A study of Mus musculus with 16 samples.

Results

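The genes described here are 10 genes of the blood-brain barrier and its endothelium, taken from the 49671 genes counted in whole mouse brain. They were chosen by symbol: the tight junction genes Cldn5, Ocln and Tjp1, the barrier transport genes Slc2a1, Mfsd2a and Abcb1a, the endothelial adhesion genes Pecam1 and Cdh5, and the leukocyte adhesion genes Icam1 and Vcam1. RNA came from 16 C57BL/6 mice, 4 in each of 4 groups, and each mouse gave 1 library. In the LPS-LPS group the dam received lipopolysaccharide (LPS, a bacterial cell-wall component that activates innate immunity) by intraperitoneal injection on gestation day 16, and the male offspring received LPS on postnatal day 30. In the LPS-saline group the dam received LPS and the offspring saline. In the saline-LPS group the dam received saline and the offspring LPS. In the saline-saline group both injections were saline. All brains were labelled postnatal day 32, that is 2 days after the offspring's injection. The group names do not spell out which injection comes first. They were read with the dam's injection first, and in the reverse reading the words prenatal and pubertal would change places. Litters and doses were not given in the sources used here, so mice of 1 group may share a dam, and the p-values reflect only how far these animals differed.

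The blood-brain barrier is formed by endothelial cells whose neighbouring membranes are sealed by tight junctions. Because little passes between the cells, nutrients cross through dedicated carriers, drugs and metabolites are pumped back into the blood, and uptake in vesicles is kept low. The same endothelium can be induced by inflammatory signals to display adhesion molecules that hold leukocytes to the vessel wall. Whole brain was sequenced, so these transcripts are a small part of each library. A lower level may come from fewer endothelial cells or from less RNA per cell, which cannot be told apart in bulk samples. The cerebellar content of the libraries also differed, as given below, so a lower level need not be a change of the vessels.

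Gene counts per library ran from 25729919 to 38571036, so that 1 read was worth at most 0.0389 CPM, the read count per 1000000 gene counts that is the scale of levels below. Gabra6 marks cerebellar granule cells. It was under 1 CPM in 8 libraries (LPS-LPS replicate 2, LPS-saline replicates 1 and 2, saline-LPS replicates 1 and 2, and saline-saline replicates 1, 2 and 3) and at 2.5 to 70.4 CPM in the other 8. LPS-LPS replicate 3 went against its label of male, with 503 CPM of Xist, which the inactive X transcribes, and 0 CPM of the Y-linked Ddx3y. LPS-LPS replicate 1 held 502 CPM of the pituitary hormone gene Gh. The 22 pan-endothelial marker genes, such as Kdr, Tek and Tie1, were all measured and none was at 0 in any group. Their summed level was 303.9 to 408.9 CPM in LPS-LPS, 326.7 to 455.1 CPM in LPS-saline, 268.9 to 516.8 CPM in saline-LPS and 330 to 493 CPM in saline-saline.

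All 10 genes passed the filter on low counts, and their levels per kilobase of exon spanned a wide range. Slc2a1 averaged 26.8 ± 5.33 CPM per kilobase and Cldn5 26.1 ± 6.94 (SD, n = 16 libraries), a difference smaller than their spread. Tjp1 followed at 12.4 ± 1.61 CPM per kilobase and Mfsd2a at 9.01 ± 1.51. Abcb1a was at 4.80 ± 1.18 CPM per kilobase, Cdh5 at 3.27 ± 0.864, Vcam1 at 2.69 ± 0.244, Pecam1 at 2.27 ± 0.649 and Ocln at 1.77 ± 0.385. From Cdh5 to Ocln each gene lay within the spread of its neighbour in this order. Icam1 was lowest at 0.513 ± 0.109 CPM per kilobase, with 44 to 100 counts per library, against 2246 to 4189 counts for Tjp1. The relative spread over libraries was 9.08% of the mean for Vcam1 and 28.6% for Pecam1, the lowest and highest of the 10 genes.

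**Figure D1:**
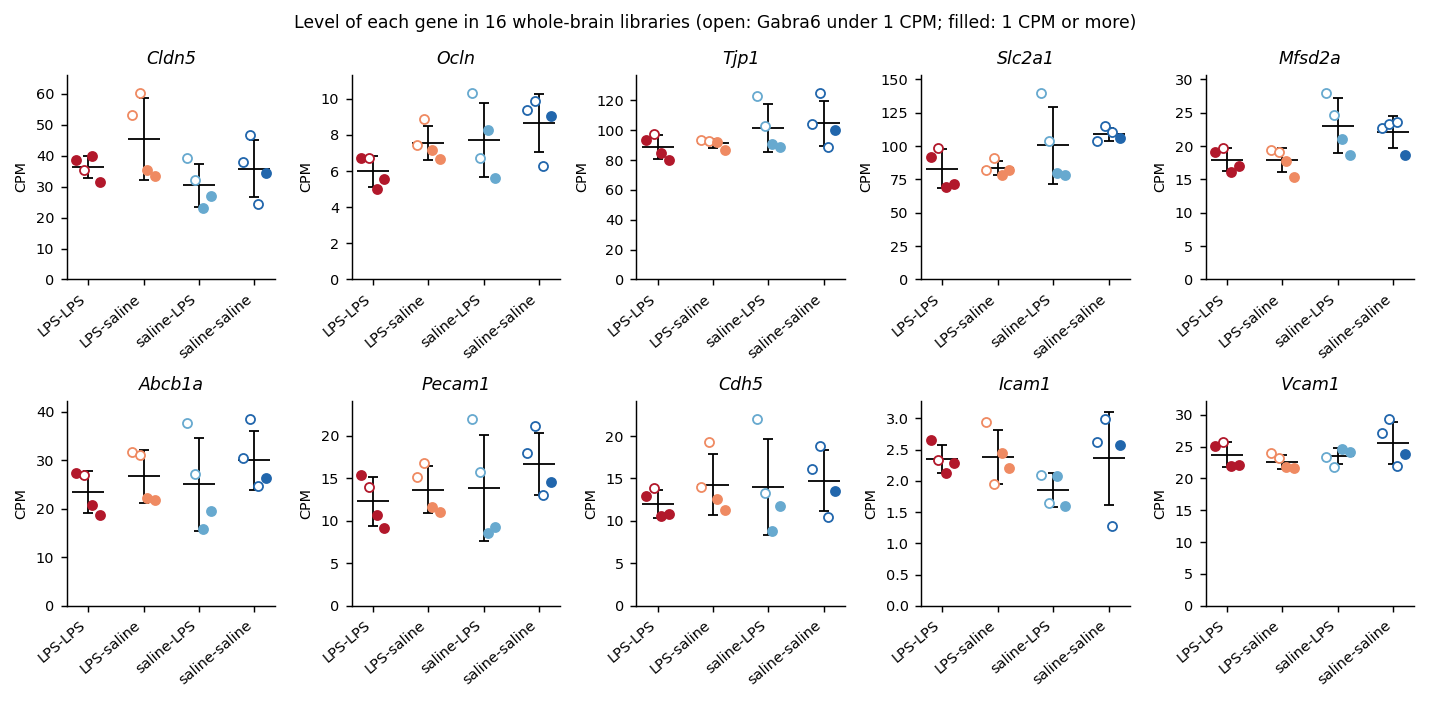
Level of each of the 10 genes in CPM (linear axes from 0) in every library by group, with replicates 1 to 4 from left to right. Black marks are group means with SD (n = 4), open points are libraries with Gabra6 under 1 CPM and filled points those at 1 CPM or more. Mfsd2a sat between 15.4 and 19.7 CPM in the 8 libraries after prenatal LPS and between 18.6 and 27.9 CPM in the 8 after prenatal saline.

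The comparison of prenatal LPS with prenatal saline, averaged over the pubertal injection, was the one in which a gene of the set was called. Mfsd2a, the transporter that carries lysolipids with omega-3 fatty acids into the brain and restrains vesicle transport across the endothelium, fell. The other 9 genes did not pass the test, with Slc2a1, Tjp1 and Ocln on the lower side and Cldn5 on the higher side. Differences were tested with the quasi-likelihood method of edgeR, and p-values were adjusted by Benjamini-Hochberg over 18875 genes. It called 1 of the 10 genes, where 7.82% of all tested genes were called, so the share in the set was near the background. With the replicate number as a block it called 3 (Mfsd2a, Slc2a1 and Tjp1), where 13.2% of all tested genes were called. The median log2 fold change was -0.16 over the 10 genes and -0.005 over all tested genes, and 8 of the 10 values were negative. Because most of the 10 genes varied together between mice, these signs are not independent.

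Mfsd2a (chromosome 4, 122946850 to 122961188, minus strand, GRCm38) had 19.2, 19.7, 16.1 and 17.0 CPM in the LPS-LPS mice and 19.4, 19.2, 17.8 and 15.4 CPM in the LPS-saline mice. It had 27.9, 24.7, 21.1 and 18.7 CPM in the saline-LPS mice and 22.7, 23.4, 23.7 and 18.6 CPM in the saline-saline mice. Of the 8 mice after prenatal saline, 6 lay above all 8 mice after prenatal LPS, and replicate 4 of both prenatal saline groups lay within their range. The means were 17.96 ± 1.64 CPM after prenatal LPS and 22.6 ± 3.12 CPM after prenatal saline (SD, n = 8 each), a log2 fold change of -0.33 ± 0.08 (SE) with adjusted p = 0.0158 by edgeR. Each single comparison of the dam's injection had the same sign without passing the test: -0.30 ± 0.11 for LPS-saline over saline-saline (adjusted p = 0.238) and -0.36 ± 0.11 for LPS-LPS over saline-LPS (adjusted p = 0.15). With the replicate number as a block these became adjusted p = 0.0403 and 0.0212. The offspring's own injection left Mfsd2a close to level, at 0.03 ± 0.08 averaged over the dam's injection (adjusted p = 0.991), with a 95% interval of -0.13 to 0.20.

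Mfsd2a moved against the cerebellar content of the libraries. Deviations of its log2 CPM from the group means correlated with the mean of 4 granule cell genes at Pearson r = -0.897 over 16 libraries, as a description. Gabra6 was at 1 CPM or more in 5 of 8 libraries after prenatal LPS and in 3 of 8 after prenatal saline. Among libraries under 1 CPM of Gabra6, Mfsd2a was 19.2 to 19.7 CPM in the 3 mice after prenatal LPS, against 22.7 to 27.9 CPM in the 5 after prenatal saline. Among the others it was 15.4 to 19.2 CPM in the 5 mice after prenatal LPS, against 18.6 to 21.1 CPM in the 3 after prenatal saline. Fitted within these classes alone, the log2 fold change was -0.35 ± 0.08 (adjusted p = 0.197 by edgeR) and -0.17 ± 0.08 (adjusted p = 0.257), and neither was called. LPS-LPS replicate 2 was the only library of its group in the first class, and saline-saline replicate 4 in the second. With the granule cell genes as a covariate over all 16 libraries the log2 fold change was -0.30 ± 0.05 (adjusted p = 0.000424 by edgeR). Without LPS-LPS replicate 3, the library that went against its label, it was -0.31 ± 0.08 (adjusted p = 0.0431).

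**Figure D2:**
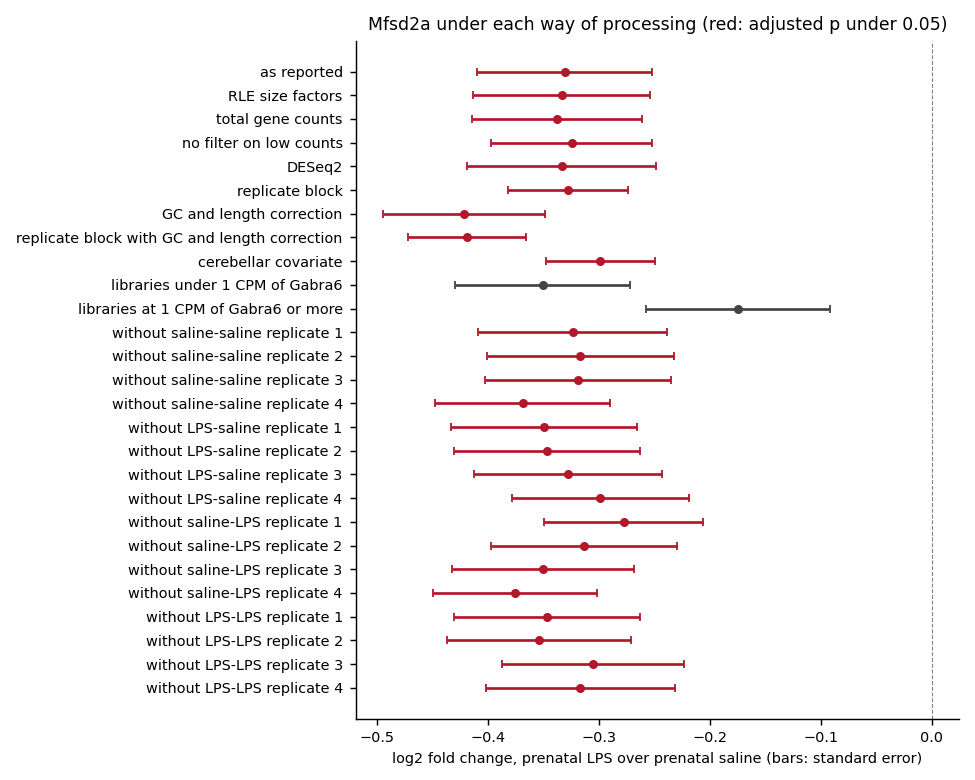
Log2 fold change of Mfsd2a for prenatal LPS over prenatal saline, averaged over the pubertal injection, as reported and under each other way of processing; bars are standard errors and red marks adjusted p under 0.05. All values lie below 0, from -0.42 to -0.17, and the 2 fits within Gabra6 classes are the ones not called.

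Slc2a1 (chromosome 4, 119108711 to 119137983, plus strand), the glucose transporter through which the brain is fed, had 91.7, 98.9, 69.7 and 71.3 CPM in LPS-LPS and 81.7, 91.4, 78.7 and 82.2 CPM in LPS-saline. It had 139.7, 103.8, 79.9 and 78.5 CPM in saline-LPS and 103.8, 115, 110.8 and 105.7 CPM in saline-saline. The saline-saline mice lay above all mice of both prenatal LPS groups, whereas the saline-LPS mice overlapped both groups and included the highest of the study. Slc2a1 averaged 83.2 ± 10.2 CPM after prenatal LPS and 104.6 ± 19.5 CPM after prenatal saline (SD, n = 8 each), a log2 fold change of -0.33 ± 0.11 that was not called (adjusted p = 0.0884 by edgeR). It was called with the replicate number as a block (-0.33, adjusted p = 0.0398), with the block and a correction for GC content and length (-0.38, adjusted p = 0.0494), with the granule cell covariate (-0.29, adjusted p = 0.025), without saline-LPS replicate 3 (-0.38, adjusted p = 0.0491) and without saline-LPS replicate 4 (-0.38, adjusted p = 0.045). Genes whose groups did not overlap made up 9.12% of all tested genes for LPS-saline against saline-saline and 17.4% for LPS-LPS against saline-saline, and Slc2a1 was the 1 gene of the set in each. The antisense gene Gm12868 overlaps an exon of Slc2a1 and held 229 counts over all libraries, against 48426 for Slc2a1.

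The promoter sequences of Mfsd2a and Slc2a1, both on chromosome 4, are shown because these genes had the most negative averaged prenatal log2 fold changes of the set. They varied together between mice (Pearson r = 0.801), as they did with Pecam1 (0.801 for Mfsd2a and 0.867 for Slc2a1). Within libraries at 1 CPM of Gabra6 or more the pair was at 0.552. That of Icam1 is shown because this gene correlated least with Mfsd2a and Slc2a1 over all 16 libraries. Promoters were taken from RefSeq (GRCm38.p6), which held entries for 7 of the 10 genes and none used here for Pecam1, Cdh5 and Vcam1, as 250 bases before to 50 bases after the start, 5′ to 3′ on the gene's strand. Capitals mark matches, on either strand, to TATAAA (the letters of the TATA box), the hypoxia response core ACGTG, the NF-κB consensus and its short form GGAANTTCC. None of the matches shown overlaps another.
Mfsd2a: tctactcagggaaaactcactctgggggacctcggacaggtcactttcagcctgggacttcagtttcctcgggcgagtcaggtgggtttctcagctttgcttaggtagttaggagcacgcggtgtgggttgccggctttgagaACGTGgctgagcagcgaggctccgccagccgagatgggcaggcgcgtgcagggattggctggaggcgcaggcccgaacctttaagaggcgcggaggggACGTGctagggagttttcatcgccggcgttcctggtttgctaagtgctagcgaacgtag
Slc2a1: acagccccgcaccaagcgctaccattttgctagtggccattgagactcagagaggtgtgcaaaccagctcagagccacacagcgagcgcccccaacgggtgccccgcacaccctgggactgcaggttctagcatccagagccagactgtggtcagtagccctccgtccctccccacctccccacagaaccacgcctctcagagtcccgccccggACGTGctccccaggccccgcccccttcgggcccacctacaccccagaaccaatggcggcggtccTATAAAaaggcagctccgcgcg
Icam1: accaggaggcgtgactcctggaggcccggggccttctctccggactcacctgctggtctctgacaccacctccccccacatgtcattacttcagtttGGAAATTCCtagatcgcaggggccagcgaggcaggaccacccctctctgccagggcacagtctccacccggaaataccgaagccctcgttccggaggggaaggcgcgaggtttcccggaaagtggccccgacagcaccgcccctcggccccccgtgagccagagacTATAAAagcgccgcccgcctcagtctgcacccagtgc

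The Mfsd2a window (chr4:122961139-122961438, minus strand) held ACGTG at 2 places, and the Slc2a1 window (chr4:119108495-119108794, plus strand) held ACGTG and TATAAA. The Icam1 window (chr9:21015690-21015989, plus strand) held TATAAA and GGAAATTCC, a match to the short NF-κB form. Among 32851 RefSeq promoters of the same length, ACGTG occurred in 19.6%, TATAAA in 13.6%, the NF-κB consensus in 8.46% and GGAANTTCC in 0.928%. Counted from 1 at the RefSeq start, TATAAA lay at bases 29 to 34 of Slc2a1 and 14 to 19 of Icam1, after that start. The annotated gene start of Icam1, 21015985, lies downstream of its TATAAA. Whether the Icam1 match lies before or after the start thus depends on the start used. A match is a run of letters, and binding of any factor was not measured here.

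Abcb1a (chromosome 5, 8660077 to 8748575, plus strand) encodes the P-glycoprotein pump that returns drugs to the blood, and has a close paralogue, Abcb1b, so reads of shared sequence are uncertain. Its level ran from 18.8 to 27.4 CPM in LPS-LPS, 21.7 to 31.7 CPM in LPS-saline, 15.8 to 37.6 CPM in saline-LPS and 24.8 to 38.4 CPM in saline-saline. All groups overlapped. The averaged prenatal log2 fold change was -0.13 ± 0.18 (adjusted p = 0.726 by edgeR), with a 95% interval of -0.51 to 0.25.

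Among the tight junction genes, Cldn5 and its partners lay on opposite sides of 0 after prenatal LPS. Cldn5 (chromosome 16, 18776847 to 18778262, plus strand), the main sealing claudin of brain endothelium, had 38.6, 35.3, 39.9 and 31.6 CPM in LPS-LPS and 53.2, 60.2, 35.2 and 33.3 CPM in LPS-saline. It had 39.4, 32.1, 23.0 and 27.0 CPM in saline-LPS and 37.9, 46.6, 24.3 and 34.4 CPM in saline-saline. The groups overlapped, and the highest levels were LPS-saline replicates 1 and 2, both under 1 CPM of Gabra6. The averaged prenatal log2 fold change was 0.30 ± 0.16 and not called (adjusted p = 0.298 by edgeR). Within the class under 1 CPM of Gabra6 it was 0.31 ± 0.22 (adjusted p = 0.612), and in the class at 1 CPM or more 0.28 ± 0.08 (adjusted p = 0.0676). Cldn5 has the shortest exonic length of the set, 1416 bases, and the highest GC content, 60.45%. Gene length and level relative to the mean of all libraries correlated across genes at Spearman rho of -0.267 to -0.013 in the libraries after prenatal LPS and -0.054 to 0.189 in those after prenatal saline. For GC content rho was -0.194 to 0.336 after prenatal LPS and -0.435 to 0.236 after prenatal saline. It was highest in LPS-saline replicates 1 (0.336) and 2 (0.321), the libraries with the most Cldn5. With each library corrected for GC content and length, the Cldn5 value was 0.13 ± 0.16, and that of Mfsd2a, 2250 bases long, was -0.42 ± 0.07 (adjusted p = 0.00438).

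Ocln (chromosome 13, 100496507 to 100552718, minus strand), a membrane-spanning tight junction protein, had 6.72, 6.71, 4.99 and 5.55 CPM in LPS-LPS and 7.45, 8.85, 7.19 and 6.68 CPM in LPS-saline. It had 10.3, 6.71, 8.28 and 5.61 CPM in saline-LPS and 9.40, 9.90, 6.29 and 9.02 CPM in saline-saline. LPS-LPS held the lowest mean, and replicate 3 of saline-saline lay inside its range. For LPS-LPS against saline-saline the log2 fold change was -0.53 ± 0.17, the most negative of the set in any comparison, and it was not called (adjusted p = 0.067 by edgeR). Leaving out saline-saline replicate 3, saline-LPS replicate 1 or saline-LPS replicate 4 brought it past the threshold (adjusted p = 0.026, 0.0219 and 0.0388), and DESeq2 gave -0.53 with adjusted p = 0.0288. Averaged over the other injection, Ocln differed by -0.28 ± 0.12 with prenatal LPS (adjusted p = 0.159) and by -0.25 ± 0.12 with pubertal LPS (adjusted p = 0.951).

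Tjp1 (chromosome 7, 65296165 to 65527781, minus strand), the scaffold that ties junction proteins to actin and is also made outside endothelium, averaged 90.0 ± 5.73 CPM after prenatal LPS and 103 ± 14.5 CPM after prenatal saline (SD, n = 8 each). The highest mouse after prenatal LPS had 97.7 CPM and the highest after prenatal saline 124.9 CPM. The log2 fold change was -0.19 ± 0.07 and not called (adjusted p = 0.104 by edgeR). It was called with the replicate number as a block (-0.19, adjusted p = 0.0177), with the granule cell covariate (-0.17, adjusted p = 0.042) and without saline-saline replicate 3 (-0.23, adjusted p = 0.046).

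The endothelial adhesion genes did not pass the test in any of the 8 comparisons. Pecam1 (chromosome 11, 106654217 to 106750628, minus strand), an adhesion molecule of endothelial contacts, ran from 9.19 to 15.3 CPM in LPS-LPS, 11.1 to 16.8 CPM in LPS-saline, 8.57 to 21.9 CPM in saline-LPS and 13.1 to 21.1 CPM in saline-saline. Cdh5 (chromosome 8, 104101625 to 104144511, plus strand), the cadherin of endothelial adherens junctions, ran from 10.5 to 13.9 CPM in LPS-LPS, 11.3 to 19.4 CPM in LPS-saline, 8.79 to 22.0 CPM in saline-LPS and 10.5 to 18.9 CPM in saline-saline. Their ranges lay higher, with overlap, in libraries with little cerebellar RNA: Pecam1 was at 13.1 to 21.9 CPM under 1 CPM of Gabra6 and 8.57 to 15.3 CPM in the others (n = 8 each), and Cdh5 at 10.5 to 22.0 and 8.79 to 13.6 CPM. The averaged prenatal log2 fold change was -0.23 ± 0.20 for Pecam1 (adjusted p = 0.554 by edgeR) and -0.13 ± 0.18 for Cdh5 (adjusted p = 0.741).

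The leukocyte adhesion genes showed no called rise 2 days after the pubertal LPS injection. Icam1 (chromosome 9, 21015985 to 21028817, plus strand), a ligand of leukocyte integrins that endothelium displays on inflammatory activation, had 2.66, 2.34, 2.12 and 2.28 CPM in LPS-LPS and 2.95, 1.94, 2.45 and 2.20 CPM in LPS-saline. It had 2.09, 1.65, 2.08 and 1.59 CPM in saline-LPS and 2.62, 2.98, 1.27 and 2.57 CPM in saline-saline. The LPS-LPS mice lay above the saline-LPS mice without overlap, as did 7.94% of all tested genes in 1 direction or the other, with a log2 fold change of 0.34 ± 0.21 that was not called (adjusted p = 0.501 by edgeR). For pubertal LPS the value was -0.34 ± 0.21 after prenatal saline (95% interval -0.78 to 0.09) and -0.02 ± 0.21 after prenatal LPS (-0.44 to 0.41), and neither was called. The antisense gene Gm47079 overlaps an exon of Icam1 and held 288 counts over all libraries, against 1148 for Icam1. The strand setting is not known, so reads of this pair cannot be told apart and the Icam1 level is uncertain.

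Vcam1 (chromosome 3, 116109949 to 116129688, minus strand), another integrin ligand, ran from 21.9 to 25.8 CPM in LPS-LPS, 21.6 to 23.9 CPM in LPS-saline, 21.9 to 24.6 CPM in saline-LPS and 22.0 to 29.3 CPM in saline-saline. It varied least of the set. The averaged log2 fold change was -0.03 ± 0.06 for pubertal LPS (adjusted p = 0.991 by edgeR), with a 95% interval of -0.15 to 0.10, and -0.08 ± 0.06 for prenatal LPS (adjusted p = 0.446).

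In the remaining comparisons edgeR called 0 of the 10 genes. For LPS-saline against saline-saline 3 genes had an unadjusted p under 0.05 (Slc2a1, Mfsd2a and Vcam1), and 0.18% of all tested genes were called. For LPS-LPS against saline-LPS there were 2 (Ocln and Mfsd2a), with 0.609% of all genes called. DESeq2 called 0 of the set in both. For LPS-LPS against saline-saline there were 4 (Ocln, Tjp1, Slc2a1 and Mfsd2a), with 6.56% of all genes called. DESeq2 called 1 of the set there, Ocln, and 9.42% of all genes. For pubertal LPS after prenatal saline, after prenatal LPS and averaged over both, and for the interaction of the injections, 0 genes of the set had an unadjusted p under 0.05, DESeq2 called 0 of the set, and 0% of all genes were called by edgeR. Of 18875 tested genes, these 4 comparisons had 535, 756, 947 and 402 with an unadjusted p under 0.05 by edgeR. With no difference between groups, a share of about 0.05 of the genes would have such a p-value. DESeq2 called 0, 9, 7 and 2 genes. Averaged over the prenatal injection, 9 of the 10 values for pubertal LPS were negative, with a median of -0.17, beside 0.001 over all genes. The comparisons share groups and are not independent of each other, and genes that vary together do not give independent signs.

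**Figure D3:**
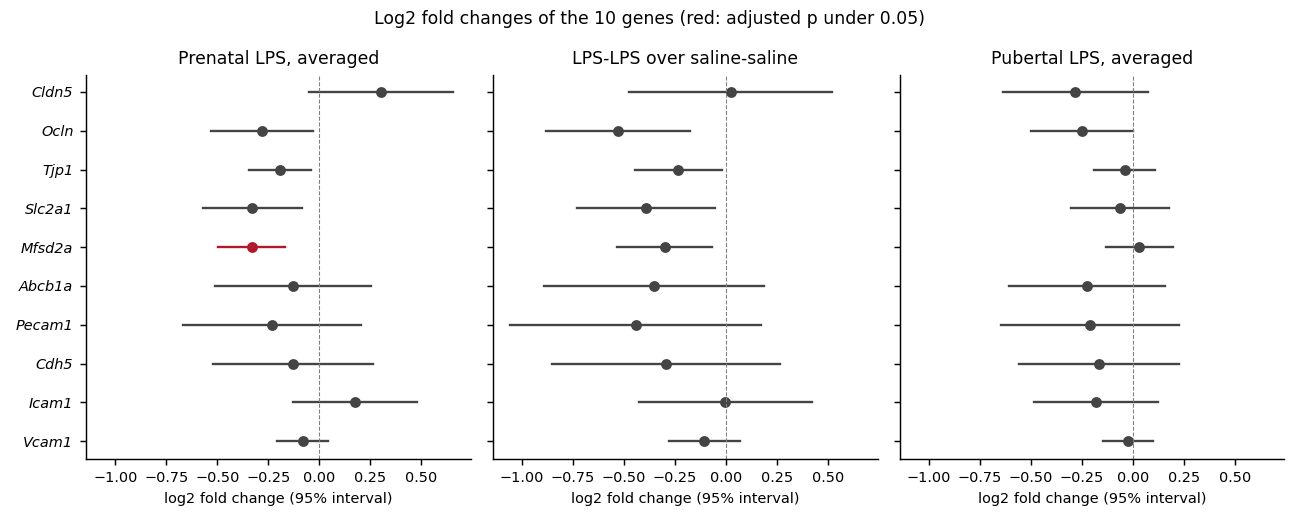
Log2 fold changes of the 10 genes with 95% intervals (linear axes) for prenatal LPS averaged over the pubertal injection, LPS-LPS over saline-saline, and pubertal LPS averaged over the prenatal injection. Mfsd2a, in red at -0.33 in the first panel, is the value past the threshold.

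Between mice, Abcb1a, Pecam1 and Cdh5 varied together closely, while Icam1 and Vcam1 followed the other genes to a degree that depended on the libraries compared. Pearson correlations below are of log2 CPM deviations from group means over 16 libraries that share differences in cerebellar content, and are descriptions. Abcb1a and Pecam1 correlated at 0.981, and at 0.969 within the libraries under 1 CPM of Gabra6 and 0.963 within the others (n = 8 each). Pecam1, Cdh5 and Abcb1a correlated pairwise at 0.909 to 0.981, and Slc2a1 with Mfsd2a at 0.801. Icam1 and Vcam1 correlated at 0.679 with each other and at 0.088 to 0.666 with the other 8 genes, lowest for Icam1 with Mfsd2a and highest for Icam1 with Ocln. The median of these 16 pairs was 0.409, beside 0.666 over all 45 pairs of the set. Within the libraries under 1 CPM of Gabra6 it was 0.612, beside 0.681 over all pairs, and within the others 0.139, beside 0.494, although Icam1 and Ocln reached 0.97 there. With the mean of the pan-endothelial markers, r was 0.982 for Abcb1a and for Pecam1, 0.948 for Cdh5, 0.891 for Tjp1 and 0.863 for Slc2a1. It was 0.833 for Cldn5, 0.769 for Mfsd2a, 0.7 for Ocln, 0.429 for Vcam1 and 0.361 for Icam1.

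**Figure D4:**
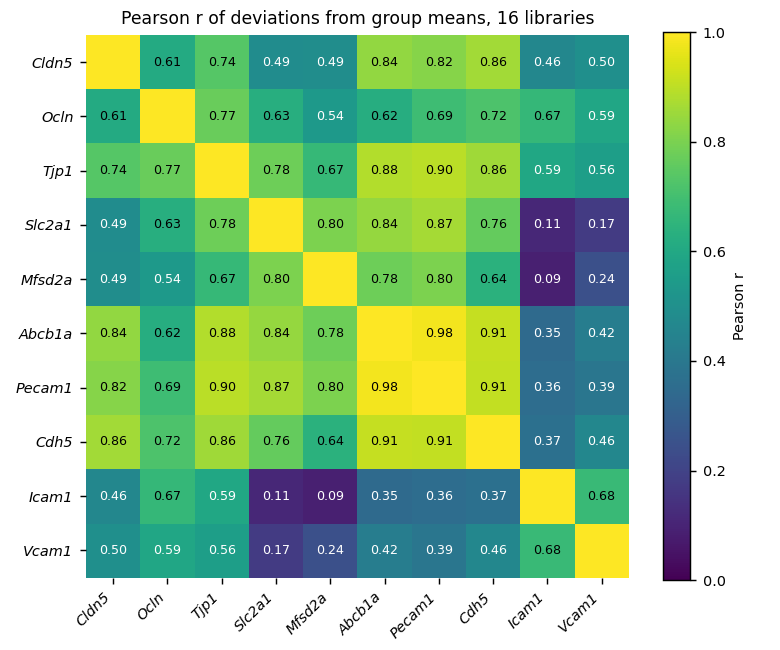
Pearson correlation of the deviations of log2 CPM from group means for each pair of the 10 genes over 16 libraries, coloured from 0 to 1. Abcb1a, Pecam1 and Cdh5 form the block above 0.9, and the lowest value is 0.09 between Mfsd2a and Icam1.

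Over 13737 genes, the 3 nearest by this measure to Pecam1 were Adgrf5, Abcb1a and Rnf165 (r = 0.98 to 0.981), and those nearest to Abcb1a were Pecam1, Tek and Notch4 (0.975 to 0.981). Cdh5 was nearest to Clic5, Cxcl12 and Ptprb (0.959 to 0.971), Cldn5 to Mycn, Egfl7 and Myl9 (0.935 to 0.945), and Tjp1 to Nrp1, Hspa12b and Zfp236 (0.95 to 0.959). Of these neighbours, Tek, Ptprb and Egfl7 were also among the pan-endothelial markers. Slc2a1 was nearest to Hivep1, Mical3 and B4galt5 (0.962 to 0.97), Mfsd2a to Ptpn1, Ppp2r2c and Fbxo10 (0.95 to 0.969), and Ocln to Imp4, Eloa and Adam1a (0.886 to 0.91). Icam1 was nearest to Xlr3a, Nid1 and Amot (0.855 to 0.908) and Vcam1 to Mroh2a, Rbm47 and Snap23 (0.83 to 0.87). None of the 3 nearest to Mfsd2a, Slc2a1, Ocln or Vcam1 was on the pan-endothelial list. Nostrin, which is on it, was at rank 9 for Slc2a1 (0.955).

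Relative to other endothelial genes of the same library, Cldn5 stood higher after prenatal LPS, with overlap. Cldn5 to Pecam1, a ratio of CPM chosen after the values were seen and given with no test, was 2.51 to 3.76 in mice after prenatal LPS, against 1.8 to 2.9 in mice after prenatal saline (means 3.17 ± 0.479 and 2.25 ± 0.388, SD, n = 8 each). Cldn5 to Cdh5 was 2.55 to 3.81 in mice after prenatal LPS, against 1.8 to 2.62 in mice after prenatal saline. Mfsd2a to Pecam1 overlapped widely, at 1.42 ± 0.218 after prenatal LPS and 1.6 ± 0.467 after prenatal saline. The part of transcript length and GC content in these ratios was not tested.

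**Figure D5:**
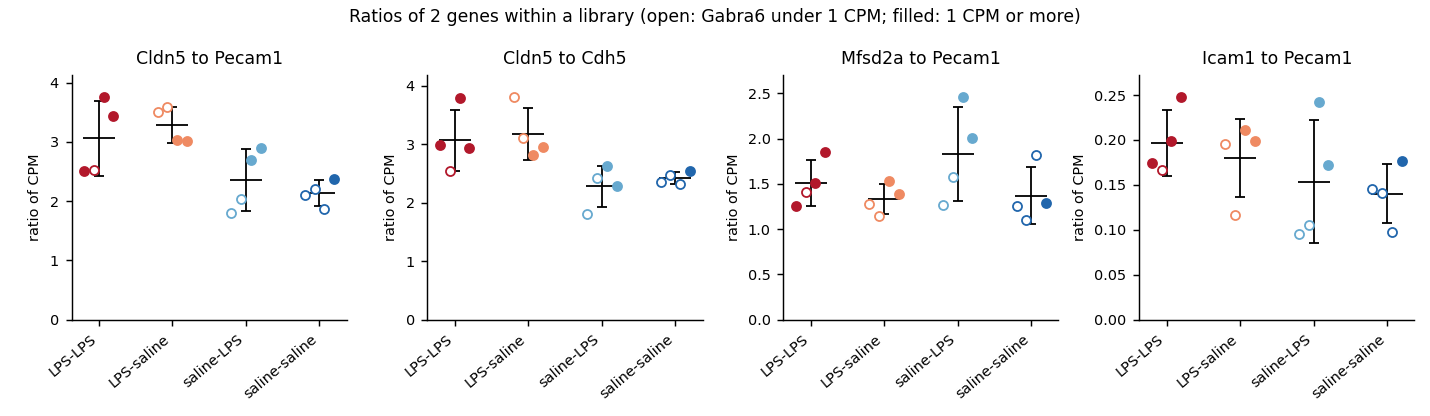
Ratio of CPM of 2 genes within each library by group (linear axes from 0), with group means and SD (n = 4), open points for libraries with Gabra6 under 1 CPM and filled points for the others. Cldn5 to Pecam1 and Cldn5 to Cdh5 lie higher in the prenatal LPS groups on the left, and Mfsd2a to Pecam1 and Icam1 to Pecam1 overlap.

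Other genes of the barrier were called in both directions with prenatal LPS, in numbers to be read against the 7.82% of all tested genes called. In the averaged comparison 2 of 18 barrier transporters and receptors fell: Abcc4, an efflux pump, was at 12 ± 1.33 CPM after prenatal LPS and 14.8 ± 1.86 CPM after prenatal saline (log2 -0.30 ± 0.08, adjusted p = 0.0274 by edgeR), and Insr, the insulin receptor, differed by -0.16 (adjusted p = 0.0303). Among 18 genes of the Wnt and beta-catenin programme that induces and keeps the barrier, 1 fell: Fzd4, the Frizzled receptor for norrin and Wnt ligands, was at 12.9 ± 1.32 CPM after prenatal LPS and 16.9 ± 2.83 CPM after prenatal saline (log2 -0.39 ± 0.09, adjusted p = 0.0162; SD, n = 8 each). Of 16 junction partners, F11r, a junctional adhesion molecule, rose by 0.31 (adjusted p = 0.0263) and Afdn, which links junctions to actin, fell by 0.14 (adjusted p = 0.0337). Of 6 genes of caveolae and vesicle transport, Cavin2, a caveolar coat protein, fell by 0.29 (adjusted p = 0.0429). The medians of these lists were -0.05, -0.04, -0.07 and 0.08, beside -0.005 over all genes. Whole brain was sequenced, and which cells these values came from was not tested.

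For LPS-LPS against saline-saline 6.56% of all tested genes were called, and the lists held 1 call among 6 genes of caveolae and vesicle transport, 1 among 18 transporters and receptors, 1 among 18 Wnt programme genes and 1 among 16 junction partners. Plvap, the diaphragm protein of fenestrated vessels, rose: it averaged 9.65 ± 1.1 CPM in LPS-LPS mice and 7.56 ± 0.798 CPM in saline-saline mice (SD, n = 4 each; log2 0.35 ± 0.10, adjusted p = 0.0343 by edgeR). Beside it, the choroid plexus gene Aqp1 rose by 0.50 (adjusted p = 0.0172), while 6 of 9 choroid plexus genes were positive and their summed level was 312.2 to 518 CPM in LPS-LPS and 315 to 425.2 CPM in saline-saline. Meningeal fibroblast genes had 7 of 8 positive values with Slc6a13 (0.51, adjusted p = 0.00808) and Foxc1 (0.34, adjusted p = 0.0399) called, and a summed level of 265.2 to 312.8 CPM in LPS-LPS and 228.8 to 279.7 CPM in saline-saline. The part of these tissues in the Plvap value was not tested. Insr (-0.23, adjusted p = 0.0345), Lrp6, a Wnt co-receptor (-0.23, adjusted p = 0.0381), and Afdn (-0.20, adjusted p = 0.0333) fell. The cells behind these 3 whole-brain values are not known.

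Most general endothelial genes had negative values, and the 1 call among them was a rise. With prenatal LPS averaged, 17 of 22 pan-endothelial genes were negative, with a median of -0.11, and the 1 gene called, Itm2a, a membrane protein enriched in brain endothelium, rose by 0.18 (adjusted p = 0.0353 by edgeR). With pubertal LPS averaged, 21 of 22 were negative with a median of -0.20, beside 0.001 over all genes, and 0 were called. For LPS-LPS against saline-saline 18 of 22 were negative with a median of -0.31, beside 0 over all genes, and 0 were called. For prenatal LPS averaged the median over all genes was -0.005. Genes of the basement membrane, the sheet that endothelium and pericytes share, were negative for 11 of 12 with prenatal LPS averaged (median -0.17). Pericyte and smooth muscle genes were negative for 12 of 16 (median -0.13), and 0 were called in both lists. Vessel genes varied together between libraries: Pecam1 followed the means of the pan-endothelial, basement membrane and pericyte lists at r of 0.982, 0.964 and 0.93. Signs within and between these lists are therefore not independent. Of 7 arterial genes 0 were called, with a median of -0.02. Of 16 tested genes of leukocyte adhesion and endothelial activation, 1 rose with prenatal LPS averaged: Lcn2, an acute-phase protein also on the venous list, was at 0.736 ± 0.229 CPM after prenatal LPS and 0.328 ± 0.154 CPM after prenatal saline (log2 1.18 ± 0.28, adjusted p = 0.0145). Of 7 tested leukocyte integrin and ligand genes 0 were called.

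Markers of neighbouring cells gave these values in the averaged prenatal comparison, where 7.82% of all tested genes were called. Of 9 astrocyte endfoot genes, Hepacam (-0.16, adjusted p = 0.0171 by edgeR) and Gjb6, a gap junction protein (-0.19, adjusted p = 0.0365), fell. Of 9 microglial genes, Aif1 rose by 0.42 (adjusted p = 0.0128), and of 8 meningeal fibroblast genes, Foxc1 and Dcn, a proteoglycan, rose by 0.25 and 0.23 (adjusted p = 0.0292 and 0.0405). Blood cell genes were negative for 5 of 7 with 0 called and a summed level of 18.4 to 111.3 CPM after prenatal LPS and 21.9 to 223.5 CPM after prenatal saline. Granule cell genes summed to 1.97 to 230.5 CPM after prenatal LPS and 2.56 to 274.4 CPM after prenatal saline. None of these markers was at 0 in a group, and their part in the values of the 10 barrier genes was not tested. In the comparisons of pubertal LPS and in the single comparisons of prenatal LPS, 0 genes of any list were called.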

How the data were processed

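Whole-number read counts per Ensembl gene were deposited by the authors, 1 file per mouse. The submitters' processing notes name STAR (version 2.5.2b), HTSeq (version 0.11.2) and the build GRCm38. The strand setting, any read filter and the annotation release were not given there. The 5 special entries stayed out of library sizes and tests; reads without a gene were 8.38 to 11.1% of all counts. GENCODE M21 matched 49412 of 49671 identifiers and left 259. Comparing libraries within each group found no duplicated pair; libraries of different groups were not set against each other.

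From these counts, edgeR 4.0.16 in R 4.3.3 filtered genes with filterByExpr (18875 left), scaled libraries by TMM and fitted all 16 libraries and 4 groups in 1 robust quasi-likelihood model with 8 two-sided comparisons, an adjusted p threshold of 0.05, and DESeq2 1.42.0 as an alternative. CPM use TMM-scaled totals; intervals cover the spread between mice, and values of 1 read counting error only. The fit was tested on simulated counts with known changes, drawn independently for each library with the spread that the fit itself estimated. They held no shared differences in cerebellar content, GC content, length or replicate number. The simulation therefore cannot show how the fit behaves under such differences.

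Replicate numbers come from the labels. They run with Gabra6: replicates 1 and 2 were under 1 CPM except LPS-LPS replicate 1. Replicates 3 and 4 were at 1 CPM or more except saline-saline replicate 3. The replicate block and the granule cell covariate are therefore not independent settings. Same-numbered libraries deviated together, every r over 0.1, for LPS-saline with saline-saline (0.177 to 0.66), LPS-LPS with saline-LPS (0.302 to 0.398) and LPS-LPS with LPS-saline (0.218 to 0.381), so block values stand beside these comparisons, and beside the averaged prenatal one built from the first 2, where a call changes. The members, lists and tests were chosen with earlier results of these data known. Besides the 10 members, the text names the called genes of each list, at most 4 per comparison, and for each member the 3 genes most alike in log2 CPM (prior count 2) with a mean of at least 1 CPM, predicted genes left out. Ratios between members were chosen after the values were seen. Lists not named elsewhere (ependymal cells, neurons, oligodendrocytes, border macrophages, pituitary) served as cell type checks.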

Additional observations from a re-analysis of the deposited data

How the results depend on the processing

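Mfsd2a kept its sign in all 26 other fits of the averaged prenatal comparison and its call in 24: in 16 of 16 leave-one-out fits (-0.38 to -0.28) and in 8 of 10 others, the exceptions being the fits within Gabra6 classes, where 0 of the 10 genes were called. These hold 3 and 5 libraries a side, fewer than the full fit. LPS-LPS replicate 2 is the only library of its group under 1 CPM of Gabra6. Saline-saline replicate 4 is the only one of its group at 1 CPM or more. Each thus stands alone for a whole group in its class. Under 1 CPM of Gabra6 0.065% of all tested genes were called, and at 1 CPM or more 3.73%. In the averaged prenatal comparison the count was 3 with the replicate block (Tjp1, Slc2a1, Mfsd2a). It was 2 with block and GC and length correction, 3 with the granule cell covariate, and 1 to 2 on leaving out a library. Of all tested genes 7.82% were called as reported, 13.2% with the block, 5.68% with block and correction and 14.8% with the covariate. On leaving out a library the share was 3.65 to 8.59%. For LPS-LPS against saline-saline the count was 0 as reported, 1 with DESeq2 (Ocln) and 4 with the replicate block (Ocln, Tjp1, Mfsd2a, Pecam1). It was 1 with GC and length correction (Mfsd2a), 1 with both, 2 with the covariate and 3 when only the groups compared were fitted. On leaving out a library it was 0 to 2. Of all tested genes 6.56% were called as reported, 9.42% with DESeq2, 11.6% with the block and 2.52% with the correction. The share was 5.48% with both, 12.3% with the covariate, 12.5% with only the groups compared and 1.55 to 10.3% on leaving out a library. Same-numbered libraries of this pair did not all correlate over 0.1 (0.018 to 0.402). For LPS-saline against saline-saline the count was 1 with the replicate block, with block and correction, with the covariate (Mfsd2a each time) and with only the groups compared (Slc2a1). In that order 2.17%, 0.6%, 2.54% and 1.27% of all tested genes were called, beside 0.18% as reported. For LPS-LPS against saline-LPS the count was 1 with the replicate block, with block and correction and with the covariate (Mfsd2a each time). Within libraries at 1 CPM of Gabra6 or more it was also 1, Cldn5, higher by 0.55 (adjusted p = 0.00818 by edgeR). In that order 1.73%, 0.494%, 2.69% and 4.3% of all tested genes were called, beside 0.609% as reported. The Cldn5 call set LPS-LPS replicates 1, 3 and 4 against saline-LPS replicates 3 and 4. LPS-LPS replicate 1 is the library that held Gh, and replicate 3 the one that went against its label. Gene GC content and level correlated at Spearman rho of 0.313, 0.042 and -0.002 in these LPS-LPS libraries. In the saline-LPS libraries rho was -0.336 and -0.435, the lowest of all libraries. The cause of these changes in calls was not tested. The block changed no other call.

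No called value changed sign. Of all 1280 values from leaving out a library 73 changed sign, and of 850 under the other 11 settings 56, none of them called as reported or in that fit. Over all genes, the 34, 115, 1238 and 1476 calls in LPS-saline against saline-saline, LPS-LPS against saline-LPS, LPS-LPS against saline-saline and the averaged prenatal comparison ran over all settings from 2 to 479, 5 to 856, 5 to 2326 and 13 to 2792. Icam1, at 44 to 100 counts, is the gene whose depth limits it most.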

Other observations

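Of the lists used to check cell types, 4 ependymal, 6 border macrophage and 3 tested pituitary genes had 0 called in the averaged prenatal comparison. Slc17a7, a vesicular glutamate transporter and 1 of 6 neuronal genes, rose by 0.17 (adjusted p = 0.042 by edgeR), and Cnp, a myelin enzyme and 1 of 6 oligodendrocyte genes, fell by 0.18 (adjusted p = 0.0301). Mag, another myelin gene, fell by 0.36 in LPS-LPS against saline-saline (adjusted p = 0.0449), and Aif1 rose by 0.54 (adjusted p = 0.0225). Of 9 choroid plexus genes, 8 were negative with prenatal LPS averaged and 9 positive with pubertal LPS averaged, with 0 called in either.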
